A study of Saccharomyces cerevisiae with 18 samples.

Results

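The 10 genes described here act in mating of a cells, one of the mating types of budding yeast. They are AGA1, AGA2, FIG1, PRM1, FUS1, FUS3, MFA1, MFA2, STE2 and BAR1, 10 of the 7126 features in the deposited tables. The genes were chosen by name but with earlier results of these data known, so shares called among them are descriptions. All 10 passed the filter on low values, a mean of at least 10 normalized counts over the 18 libraries, as did 5825 features in all. Messenger RNA was sequenced in BY4741 cells in which, per the labels, Rvb1 or Rvb2 was tagged. Rvb1 and Rvb2 are ATPases of chromatin remodellers and, joined by Pih1 and Tah1, of the chaperone complex R2TP. In each tagged background there was a wild type, a PIH1 deletion and a TAH1 deletion, so that all 6 groups, wild types included, carry a tag. Each group held 3 biological replicates, grown as 5 ml cultures in YPD at 30 °C and taken at an OD600 between 1.2 and 1.5. Neither the kind of tag nor how many clones stand for a strain is stated in the labels.

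An a cell secretes a-factor, a lipid-modified peptide, and carries Ste2, the receptor for the alpha-factor of alpha cells. Bound receptor signals through a G protein and a kinase cascade that ends in the kinase Fus3 and the transcription factor Ste12, and Ste12 raises genes of adhesion and cell fusion. Genes expressed in a cells and not in alpha cells carry an operator where Mcm1 acts, and where alpha2 shuts them off in alpha cells. AGA2, MFA1, MFA2, STE2 and BAR1 are such a-specific genes, while AGA1, FUS1, FUS3, FIG1 and PRM1 are used by both mating types. The labels name no added alpha-factor.

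The stretches before these genes are shown because they hold matches to both kinds of element named above. In the 300 bases before the start codon, 8 of the 10 genes held the pheromone response element TGAAACA on either strand, against 432 of 6001 nuclear protein-coding genes (7.20%). AGA1, AGA2, MFA2 and STE2 held 1 match, FUS1, FUS3 and BAR1 held 2, PRM1 held 3, and FIG1 and MFA1 held none in this window. An operator pattern for alpha2 and Mcm1 (CATGT, any 3 bases, T, any base, CC, any 6 bases and GG, on either strand) was found before AGA2, MFA2, STE2 and BAR1, and before 6 of the 6001 genes in all (0.1%). Before BAR1 it matched 2 times, on opposite strands, and these matches overlap; no operator match overlapped a response element. The lines below give bases 300 to 121 before the start codon, 180 bases each, from the RefSeq R64 genome (sacCer3), 5′ to 3′ in the direction of the gene, with both motifs in capitals. A match is a description of the letters and not a measured binding site. Since a-specific genes are known to carry the operator, its matches before them are no independent result. The 10 genes were chosen as mating genes, so the share with a response element is no independent result either. The exact pattern can miss an operator of other spacing, so the lack of a match before MFA1 does not show that it has none.
AGA2, chrVII:436954-437133, minus strand: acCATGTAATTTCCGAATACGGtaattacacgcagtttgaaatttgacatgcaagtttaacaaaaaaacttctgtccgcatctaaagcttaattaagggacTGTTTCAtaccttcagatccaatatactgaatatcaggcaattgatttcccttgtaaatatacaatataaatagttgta
BAR1, chrIX:322042-322221, plus strand: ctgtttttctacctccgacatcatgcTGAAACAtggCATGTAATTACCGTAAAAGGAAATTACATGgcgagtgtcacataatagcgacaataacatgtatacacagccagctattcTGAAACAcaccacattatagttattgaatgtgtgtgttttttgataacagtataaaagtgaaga
MFA2, chrXIV:352114-352293, plus strand: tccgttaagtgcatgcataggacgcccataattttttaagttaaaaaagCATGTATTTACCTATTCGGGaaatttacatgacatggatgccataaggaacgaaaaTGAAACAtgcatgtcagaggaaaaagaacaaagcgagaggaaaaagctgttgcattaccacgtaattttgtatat
STE2, chrVI:82280-82459, plus strand: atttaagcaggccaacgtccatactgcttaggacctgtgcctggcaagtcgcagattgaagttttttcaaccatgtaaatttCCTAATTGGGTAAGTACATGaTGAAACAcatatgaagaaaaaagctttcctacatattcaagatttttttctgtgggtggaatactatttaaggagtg
FUS1, chrIII:71503-71682, plus strand: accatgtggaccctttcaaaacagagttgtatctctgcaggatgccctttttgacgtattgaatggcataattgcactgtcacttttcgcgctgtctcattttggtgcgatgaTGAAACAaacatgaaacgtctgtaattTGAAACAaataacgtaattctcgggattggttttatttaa
PRM1, chrXIV:110617-110796, plus strand: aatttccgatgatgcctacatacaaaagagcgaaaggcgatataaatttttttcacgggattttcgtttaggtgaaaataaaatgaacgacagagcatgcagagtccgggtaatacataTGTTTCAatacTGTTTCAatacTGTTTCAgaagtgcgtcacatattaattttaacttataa

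The normalized counts of a library, which are read counts divided by a factor per library, summed to 4829249 to 5412654. The deleted genes were low in the libraries labelled as deletions. PIH1 stood at 1 to 9 in the 6 PIH1 deletion libraries and at 125 to 170 in the other 12, and TAH1 at 0 to 3 in the 6 TAH1 deletion libraries and at 138 to 234 in the other 12. The library farthest from its own group was replicate 2 of the Rvb1-tagged wild type (root mean square distance of 0.404 on the log2 scale, against 0.155 to 0.306 in the others). The source field of replicate 1 of the Rvb2-tagged wild type names Rvb1, and its title, which names Rvb2, was followed. In the Rvb2-tagged TAH1 deletion the 460 tested genes of chromosome XVI had a median log2 change of 0.97. None of the 10 genes lies on that chromosome, and the medians of the 7 chromosomes that hold them were -0.16 to 0.06 in the 4 deletions.

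The libraries were checked for the markers of a cells. The genes of a cells (STE2, MFA1, MFA2, BAR1, AGA2, STE6, ASG7) summed to 12871 to 18821 normalized counts in a library, and HMRA1, which has the sequence of the a1 gene of a cells, stood at 192 to 296. Of the alpha-cell regulators, MATALPHA1 and HMLALPHA1 were at 0 in all 18 libraries, and MATALPHA2 and HMLALPHA2 did not exceed 1. The MATALPHA and HMLALPHA genes are copies of each other, and how reads that match several genes were counted is not stated. Their low counts therefore do not show whether these regulators were expressed. Other alpha-cell genes were detected: SAG1, the alpha agglutinin, at 256 to 492, AFB1 at 29 to 102, MF(ALPHA)2 at 34 to 73, STE3, the a-factor receptor, at 1 to 36, and MF(ALPHA)1 at 0 to 11. Those 5 alpha-cell genes summed to 436 to 449 in the Rvb1-tagged wild type, 356 to 399 in its PIH1 deletion and 387 to 425 in its TAH1 deletion. With tagged Rvb2 the sums were 444 to 459, 519 to 604 and 490 to 505. Markers of meiosis, which takes place in diploids, were IME1, NDT80, SPO11, SPS1, SPS4 and SPR3. They summed to 282 to 324, 223 to 251 and 285 to 313 with tagged Rvb1, in the same order. With tagged Rvb2 they summed to 282 to 313, 506 to 554 and 316 to 332. Markers of haploid cells (GPA1, STE4, STE18, FAR1, RME1) summed to 3549 to 4345 in a library. The part of the alpha-cell and meiosis genes in the results below was not tested.

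Levels of different genes are compared per length, in the deposited FPKM values. In the Rvb1-tagged wild type the a-factor genes came first, MFA2 at 3866 ± 195 FPKM (SD, n = 3) and MFA1 at 2753 ± 251. STE2 followed at 754 ± 62.1, AGA2 at 439 ± 12.8 and BAR1 at 214 ± 11.6. FUS3 stood at 103 ± 7.02, AGA1 at 92.3 ± 2.52, FUS1 at 33.0 ± 3.46, PRM1 at 12.7 ± 2.08 and FIG1 at 3.67 ± 0.577. No neighbours in this order overlapped between libraries. In the Rvb2-tagged wild type FUS3 (112 ± 5.57) and AGA1 (126 ± 7.02) changed places, and STE2 (746 to 826) and AGA2 (590 to 750) overlapped.

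**Figure D1:**
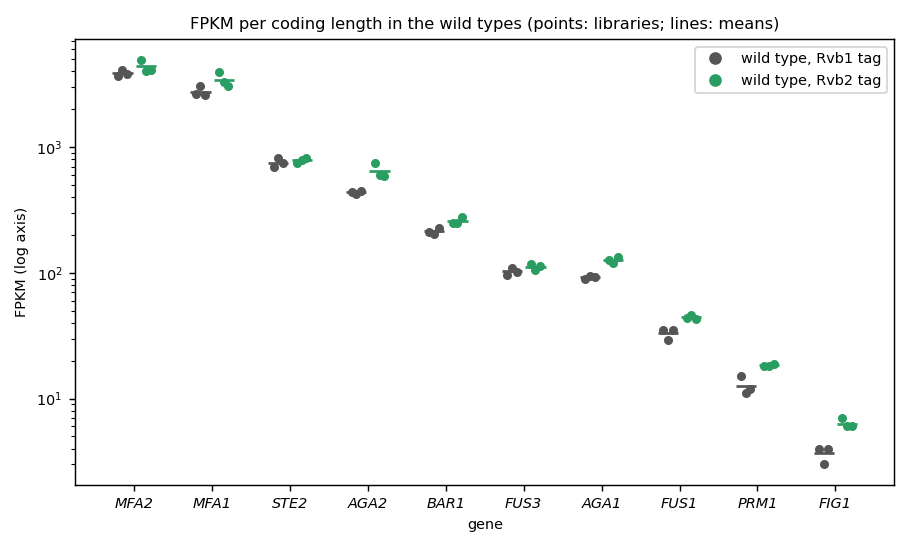
FPKM of the 10 genes (log axis) in the 3 libraries of each wild type; points are libraries and lines are means. The a-factor genes MFA2 and MFA1 lie highest and FIG1 lowest, at 3 to 4 FPKM with tagged Rvb1 and 6 to 7 with tagged Rvb2.

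All changes below are log2 changes of normalized counts ± SE from limma, fitted to log2(normalized count + 1) over all 18 libraries, with adjusted p values after Benjamini-Hochberg over 5825 genes, and a gene is called at an adjusted p under 0.05. Error of a level is SD over n = 3 libraries. In bulk RNA, a change in all cells and a change in a share of the cells cannot be told apart.

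The pattern over the 4 deletions differed between the backgrounds. In the TAH1 deletion 8 of the 10 genes were higher with tagged Rvb1 and 8 were lower with tagged Rvb2, while in the PIH1 deletion AGA1, AGA2, FIG1, FUS1 and BAR1 were lower in both. Chromosome XVI had a median log2 change of 0.97 in the Rvb2-tagged TAH1 deletion and of 0.01 to 0.05 in the other deletions. The part of that chromosome in this pattern was not tested. MFA2 was the only one of the 10 higher in all 4 deletions. With tagged Rvb1, PIH1 deletion called 7 of 10, 2 higher and 5 lower, against a background of 38% of all genes tested (19.2% higher, 18.7% lower). TAH1 deletion called 8 higher and 0 lower, against 10.8% of all genes (6.28% higher, 4.48% lower); at an unadjusted p under 0.05, 9 were higher and 0 lower. With tagged Rvb2, PIH1 deletion called 3 higher and 5 lower, against 69.6% of all genes (35.2% higher, 34.4% lower), a share near that background. TAH1 deletion called 1 higher and 8 lower, against 44.4% (23.8% higher, 20.6% lower). The median log2 changes of the 10 genes were -0.27, 0.42, -0.16 and -0.79 in this order, and those of all genes tested 0.01, 0.00, 0.01 and 0.02. The libraries of a deletion lay wholly above or below those of its wild type for 8, 8, 9 and 9 of the 10 genes in this order, against 42.7%, 22.5%, 71.7% and 53.5% of all genes. The deletions of a background share their wild type libraries.

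**Figure D2:**
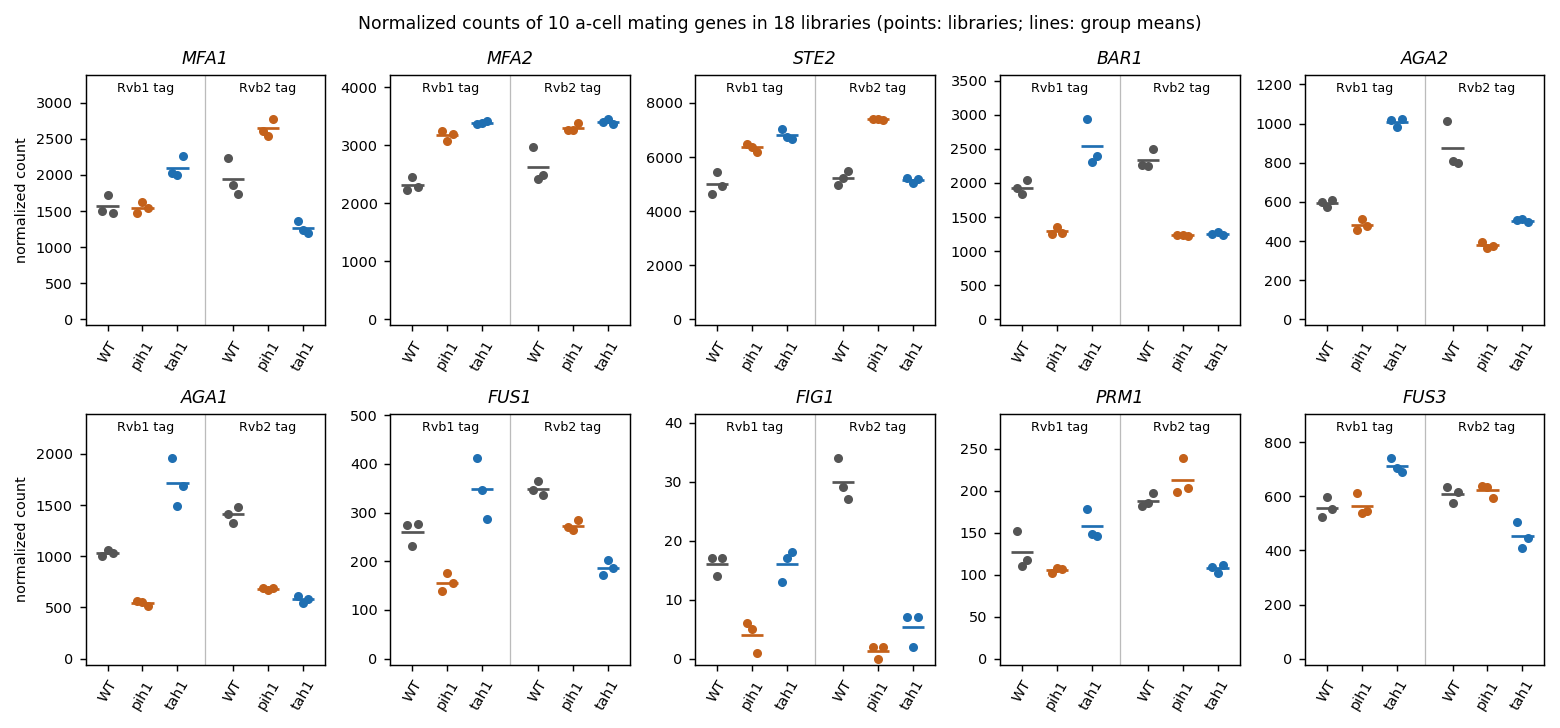
Normalized counts of each gene in the 18 libraries by group (linear axes from 0); points are libraries and lines are group means, with wild type in grey, PIH1 deletion in orange and TAH1 deletion in blue. AGA1 in the Rvb1-tagged TAH1 deletion lies at 1489 to 1960, above all other libraries, and in the other 3 deletions at 517 to 689, below both wild types.

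The agglutinin genes AGA1 and AGA2 were called in all 4 deletions. AGA1 (YNR044W, chromosome XIV, 703699 to 705876) encodes the cell wall anchor of a-agglutinin, the adhesin by which a cells bind alpha cells. With tagged Rvb1 it measured 1007, 1058 and 1032 normalized counts in the wild type, 566, 558 and 517 in the PIH1 deletion, and 1960, 1489 and 1690 in the TAH1 deletion. With tagged Rvb2 it measured 1417, 1328 and 1480 in the wild type, 689, 673 and 686 in the PIH1 deletion, and 613, 545 and 587 in the TAH1 deletion. No deletion group overlapped its wild type, and the Rvb1-tagged TAH1 deletion lay above it where the other 3 lay below. The changes were -0.92 ± 0.08 (limma adjusted p = 2.3e-07) and 0.72 ± 0.08 (1.3e-05) with tagged Rvb1, and -1.04 ± 0.08 (7.3e-09) and -1.27 ± 0.08 (6.6e-10) with tagged Rvb2, for PIH1 and TAH1 deletion in turn.

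AGA2 (YGL032C, chromosome VII, 436570 to 436833), the binding subunit that is linked to Aga1 by disulfide bonds, took the same directions. It measured 598, 575 and 609 in the Rvb1-tagged wild type, 455, 514 and 477 without PIH1, and 1018, 982 and 1025 without TAH1. In the Rvb2-tagged wild type it measured 1015, 807 and 799, without PIH1 395, 364 and 376, and without TAH1 506, 512 and 495. Again no deletion overlapped its wild type. The changes were -0.30 ± 0.08 (limma adjusted p = 0.0058), 0.76 ± 0.08 (4.7e-06), -1.20 ± 0.08 (1.2e-09) and -0.78 ± 0.08 (2.2e-07), in the order used for AGA1.

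BAR1 (YIL015W, chromosome IX, 322342 to 324105) encodes a secreted protease by which a cells degrade alpha-factor. With tagged Rvb1 it measured 1920, 1837 and 2040 in the wild type, 1255, 1355 and 1261 in the PIH1 deletion, and 2943, 2305 and 2396 in the TAH1 deletion. The Rvb2-tagged groups gave, in the same order, 2261, 2254 and 2492, then 1230, 1233 and 1229, then 1253, 1284 and 1236. The 3 groups that fell came to nearly the same level, 1229 to 1355 in 9 libraries. The changes were -0.58 ± 0.07 (limma adjusted p = 1.9e-05), 0.39 ± 0.07 (0.0027), -0.92 ± 0.07 (1.7e-08) and -0.89 ± 0.07 (3.1e-08). Over the 18 libraries AGA1 and BAR1 had the highest correlation of log2 values among the pairs of the 10 genes (Pearson r = 0.97), and FIG1 and MFA2 the lowest (-0.53); the libraries share groups, so these are descriptions.

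The receptor and a-factor genes were not called lower in either PIH1 deletion. STE2 (YFL026W, chromosome VI, 82580 to 83875), the alpha-factor receptor, measured 4640, 5451 and 4945 in the Rvb1-tagged wild type, 6474, 6387 and 6202 without PIH1, and 7041, 6732 and 6676 without TAH1. With tagged Rvb2 it measured 4959, 5238 and 5485 in the wild type, 7409, 7417 and 7373 without PIH1, and 5221, 5049 and 5206 without TAH1. It was above the wild type in every library of 3 deletions, and the Rvb2-tagged TAH1 deletion lay within the range of its wild type. The changes were 0.35 ± 0.06 (limma adjusted p = 0.00027), 0.45 ± 0.06 (1e-04), 0.50 ± 0.06 (8.3e-07) and -0.02 ± 0.06 (0.83).

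MFA1 (YDR461W, chromosome IV, 1385176 to 1385286) and MFA2 (YNL145W, chromosome XIV, 352414 to 352530) each encode a precursor of a-factor. Their longest shared run of coding bases is 11, in genes of 111 and 117 bases; how reads that match several genes were counted is not stated. MFA2 measured 2227, 2450 and 2279 in the Rvb1-tagged wild type, 3243, 3070 and 3198 without PIH1, and 3360, 3375 and 3425 without TAH1. The Rvb2-tagged groups gave 2977, 2425 and 2485, then 3255, 3258 and 3377, then 3395, 3457 and 3370. All 12 deletion libraries lay above all 6 wild type libraries. The rises were 0.45 ± 0.06 (limma adjusted p = 5.5e-05), 0.55 ± 0.06 (3.3e-05), 0.33 ± 0.06 (2e-04) and 0.38 ± 0.06 (0.00013).

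MFA1 rose with MFA2 in the Rvb1-tagged TAH1 deletion and the Rvb2-tagged PIH1 deletion, and parted from it in the other 2. With tagged Rvb1 it measured 1501, 1729 and 1467 in the wild type, 1476, 1624 and 1541 without PIH1, and 2029, 2000 and 2266 without TAH1. With tagged Rvb2 it measured 2234, 1862 and 1737 in the wild type, 2613, 2541 and 2779 without PIH1, and 1360, 1244 and 1196 without TAH1. The PIH1 deletion overlapped its wild type with tagged Rvb1 and lay above it with tagged Rvb2, while the TAH1 deletion lay above it with tagged Rvb1 and below it with tagged Rvb2. The changes were -0.01 ± 0.09 (limma adjusted p = 0.92), 0.42 ± 0.09 (0.0046), 0.45 ± 0.09 (2e-04) and -0.61 ± 0.09 (2.1e-05).

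FUS1 and FIG1, both known to rise strongly in cells that sense pheromone, were among the lowest of the 10 per length and fell in 3 of the 4 deletions. FUS1 (YCL027W, chromosome III, 71803 to 73341), a membrane protein of cell fusion, measured 274, 231 and 276 in the Rvb1-tagged wild type, 138, 176 and 155 without PIH1, and 412, 346 and 286 without TAH1. In the Rvb2-tagged groups FUS1 measured 346, 365 and 337, then 271, 264 and 284, then 171, 203 and 187. No deletion overlapped its wild type. The changes were -0.73 ± 0.12 (limma adjusted p = 0.00015), 0.41 ± 0.12 (0.035), -0.35 ± 0.12 (0.012) and -0.90 ± 0.12 (7.2e-06). The rise without TAH1 (0.41) missed the threshold without Rvb1-tagged wild type replicate 1 (0.45, adjusted p = 0.0664) or 3 (0.45, 0.0624) and without TAH1 deletion replicate 1 (0.28, 0.150) or 2 (0.40, 0.0880). It also missed it with upper-quartile scaling (0.36, 0.0634).

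FIG1 (YBR040W, chromosome II, 316968 to 317864), a membrane protein of the low-affinity calcium uptake system in mating, is near the lower limit of these libraries. It measured 17, 14 and 17 normalized counts in the Rvb1-tagged wild type, 6, 5 and 1 without PIH1, and 13, 17 and 18 without TAH1. In the Rvb2-tagged groups FIG1 measured 34, 29 and 27, then 2, 0 and 2, then 7, 2 and 7. The TAH1 deletion with tagged Rvb1 overlapped its wild type, and the other 3 deletions lay below theirs in every library. The changes were -1.95 ± 0.51 (limma adjusted p = 0.0066), -0.01 ± 0.51 (0.99), -3.89 ± 0.51 (2.9e-06) and -2.42 ± 0.51 (0.00092), on a scale that understates changes at low counts. Summed over 3 libraries, FIG1 was 22.5 times as high in the Rvb2-tagged wild type as in its PIH1 deletion (90 against 4; exact 95% interval 8.49 to 84.4, which covers counting error only and treats normalized counts as reads).

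PRM1 and FUS3 were called in the fewest deletions. PRM1 (YNL279W, chromosome XIV, 110917 to 112902), a membrane protein that promotes fusion of the plasma membranes, measured 152, 110 and 118 in the Rvb1-tagged wild type, 102, 108 and 107 without PIH1, and 178, 149 and 146 without TAH1. In the Rvb2-tagged groups PRM1 measured 182, 185 and 197, then 198, 239 and 203, then 109, 102 and 112. Only the Rvb2-tagged TAH1 deletion was called, at -0.80 ± 0.11 (limma adjusted p = 1.9e-05). The values for the other 3 were -0.25 ± 0.11 (0.096), 0.32 ± 0.11 (0.074) and 0.18 ± 0.11 (0.17), for PIH1 and TAH1 deletion with tagged Rvb1 and PIH1 deletion with tagged Rvb2. The first of them passed the threshold without replicate 2 of the Rvb1-tagged wild type (-0.34, adjusted p = 0.0251), and the second without replicate 1 (0.46, adjusted p = 0.0174).

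FUS3 (YBL016W, chromosome II, 192451 to 193512), the kinase at the end of the pheromone cascade, stood at 408 to 742 in all 18 libraries. It measured 523, 599 and 553 in the Rvb1-tagged wild type and 742, 706 and 690 in its TAH1 deletion, and 636, 576 and 616 in the Rvb2-tagged wild type and 505, 408 and 448 in its TAH1 deletion. TAH1 deletion thus raised it with tagged Rvb1 (0.35 ± 0.08, limma adjusted p = 0.007) and lowered it with tagged Rvb2 (-0.43 ± 0.08, 0.00024). In the PIH1 deletions it measured 611, 539 and 545, and 638, 633 and 595, both overlapping the wild types (0.02 ± 0.08, 0.89, and 0.03 ± 0.08, 0.74).

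**Figure D3:**
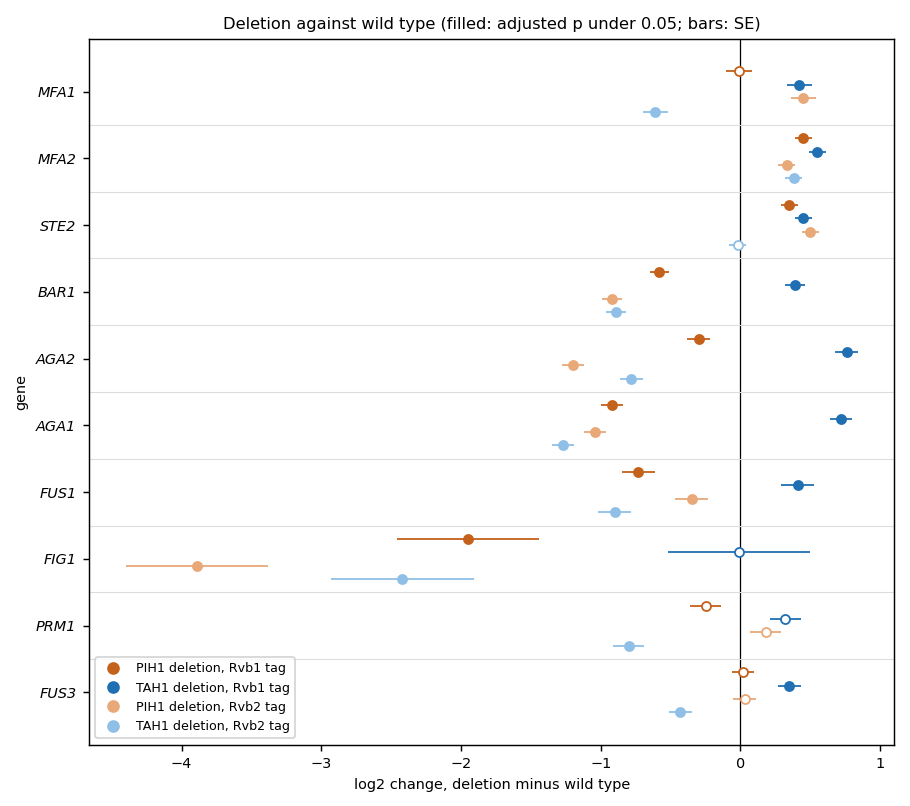
Log2 change of each gene, deletion minus wild type, in the 4 deletion comparisons; points are limma estimates, bars are SE, and filled points have an adjusted p under 0.05. The dark blue points (TAH1 deletion, Rvb1 tag) lie right of 0 where the light blue points (TAH1 deletion, Rvb2 tag) lie left of it for AGA1, AGA2, BAR1, FUS1, PRM1, FUS3 and MFA1, and all 4 points of MFA2 lie right of 0.

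When only the compared libraries were fitted, the calls of FUS1, FUS3, MFA1, STE2 and BAR1 in the Rvb1-tagged TAH1 deletion missed the threshold (limma adjusted p = 0.0524 to 0.214), and AGA1, AGA2 and MFA2 remained. No call of the other 3 deletion comparisons was lost in any alternative that tested the gene.

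The difference between backgrounds was itself tested. For TAH1 deletion the effect was lower with tagged Rvb2 than with tagged Rvb1 in 9 of the 10 genes and higher in 0, at unadjusted p under 0.05 likewise 9 and 0, against 24.5% of all genes called by limma (13% higher, 11.5% lower). AGA1 differed by -2.00 ± 0.11 (adjusted p = 1.3e-09), AGA2 by -1.55 ± 0.11 (1.2e-08), BAR1 by -1.28 ± 0.11 (8.2e-08), FUS1 by -1.31 ± 0.17 (9.7e-06) and MFA1 by -1.04 ± 0.12 (4.9e-06). MFA2 was the exception, at -0.17 ± 0.09 (0.21). The Rvb2-tagged TAH1 deletion, with its raised chromosome XVI, enters each of these differences, and the part of that chromosome was not tested. For PIH1 deletion 2 were higher and 3 lower, against 50.3% of all genes (25.7% higher, 24.7% lower), a share at the background. AGA2 fell further with tagged Rvb2 (difference -0.89 ± 0.11, limma adjusted p = 8.6e-06), while AGA1 differed by -0.13 ± 0.11 (0.36).

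The wild types differed from each other in few genes, and 3 of those were among these 10. Limma called 12 of 5825 genes (0.206%; 0.0858% higher and 0.12% lower with tagged Rvb2). AGA2 was higher in the Rvb2-tagged than in the Rvb1-tagged wild type by 0.55 ± 0.08 (adjusted p = 0.0098), AGA1 by 0.45 ± 0.08 (0.027) and PRM1 by 0.58 ± 0.11 (0.049). None of the 10 was called lower, and at an unadjusted p under 0.05, 7 were higher and 0 lower. All 3 Rvb2-tagged libraries lay above all 3 Rvb1-tagged ones for 7 of the 10 genes (AGA1, AGA2, FIG1, PRM1, FUS1, MFA1 and BAR1), against 20.3% of all genes whose groups did not overlap in either direction. With only the 6 wild type libraries fitted, 0 of the 10 were called by limma (adjusted p = 0.538 for all 3 genes; 7 at an unadjusted p under 0.05). Single libraries also ended calls: AGA1 missed the threshold without Rvb2-tagged wild type replicate 1, whose labels disagree, or 2, or any Rvb2-tagged PIH1 deletion library (adjusted p = 0.0517 to 0.0767), and PRM1 without any Rvb2-tagged library, any Rvb1-tagged PIH1 deletion library, Rvb1-tagged wild type replicate 2 or TAH1 deletion replicate 2 or 3 (0.0521 to 0.142).

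Set against each other within a background, the deletions differed in opposite called directions for AGA1, PRM1, FUS1, FUS3 and MFA1. AGA2 and FIG1 were called lower without PIH1 in both backgrounds. With tagged Rvb1, 8 of the 10 genes were lower without PIH1 than without TAH1 and 0 were higher (also at an unadjusted p under 0.05), against 26.5% of all genes called by limma (12% higher, 14.5% lower). AGA1 differed most among the genes above 100 normalized counts, by -1.64 ± 0.08 (adjusted p = 9.2e-11), and MFA2 and STE2 differed by -0.10 ± 0.06 each (0.3 and 0.22). The groups did not overlap for any of the 10, against 46.6% of all genes. Without PIH1 deletion replicate 3 the FIG1 call (-1.94 ± 0.51, 0.009) ended (-1.38, 0.056). With tagged Rvb2, 6 were higher without PIH1 and 2 lower, against 62.3% of all genes (28.7% higher, 33.6% lower). MFA1 was higher by 1.06 ± 0.09 (2.1e-08), PRM1 by 0.98 ± 0.11 (1.4e-06), FUS1 by 0.55 ± 0.12 (0.00066) and STE2 by 0.52 ± 0.06 (9.8e-07). AGA2 was lower by -0.41 ± 0.08 (0.00018) and FIG1 by -1.47 ± 0.51 (0.018), and BAR1 differed by -0.03 ± 0.07 (0.74). The groups did not overlap for 8 of the 10, against 71.3% of all genes. The part of the raised chromosome XVI of the Rvb2-tagged TAH1 deletion here was not tested. The FIG1 call ended without PIH1 deletion replicate 2 (-0.94, 0.115) or TAH1 deletion replicate 1 (0.0735) or 3 (0.0755), with quantile normalization (-1.11, 0.0567) and with only the libraries compared (0.0813), and the AGA1 call (0.23 ± 0.08, 0.017) without TAH1 deletion replicate 2 (0.0818).

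**Figure D4:**
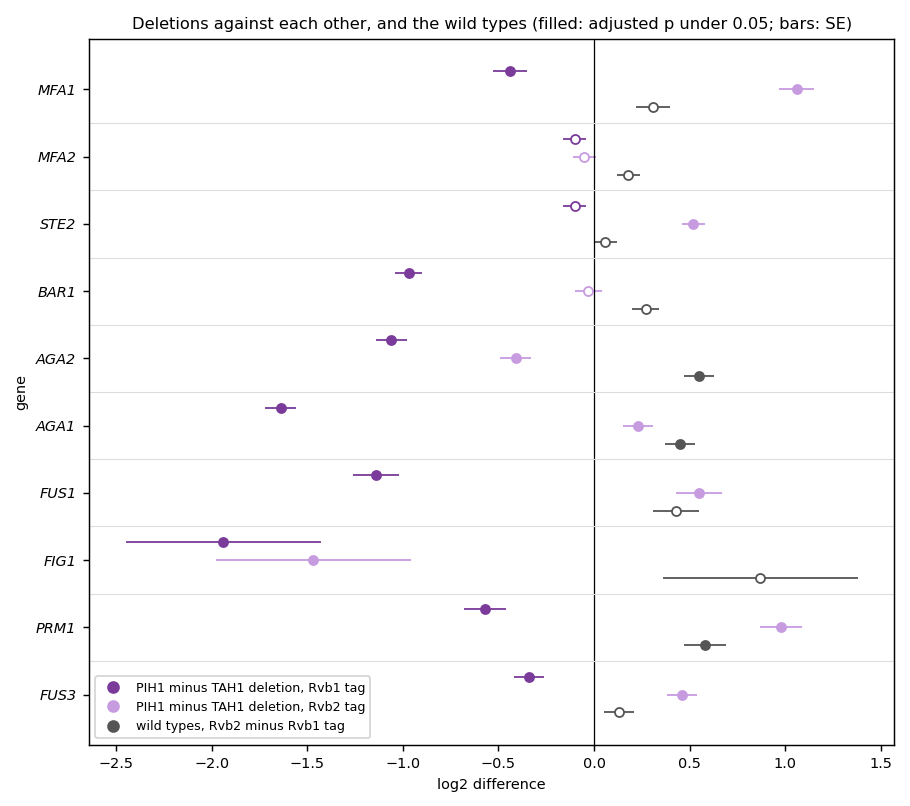
Log2 differences of each gene between the PIH1 and TAH1 deletions in each background and between the wild types; points are limma estimates, bars are SE, and filled points have an adjusted p under 0.05. The dark purple points (Rvb1 tag) lie left of 0 for all 10 genes, 8 of them filled, and the grey points (wild types) lie right of 0 for all 10, 3 of them filled.

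The rest of the pathway was followed in lists of other genes. Of 19 signalling genes, limma called 2 higher and 3 lower in the Rvb1-tagged PIH1 deletion, 3 higher and 0 lower in its TAH1 deletion (5 and 1 at an unadjusted p under 0.05), 7 higher and 4 lower in the Rvb2-tagged PIH1 deletion, and 6 higher and 5 lower in its TAH1 deletion. The shares called were 26.3%, 15.8%, 57.9% and 57.9% of the list, against 38%, 10.8%, 69.6% and 44.4% of all genes. Their median log2 changes were -0.01, 0.09, 0.15 and 0.00. FAR1, which arrests the cell cycle in response to pheromone, fell without PIH1 (-0.31 ± 0.06, limma adjusted p = 0.0013) and rose without TAH1 (0.43 ± 0.06, 0.00033) with tagged Rvb1. TEC1, a partner of Ste12 in filamentous growth, did likewise (-0.29 ± 0.08, 0.011, and 0.28 ± 0.08, 0.035). STE5 of the same list rose without PIH1 with tagged Rvb1 (0.33 ± 0.08, 0.0048) and with tagged Rvb2 (0.59 ± 0.08, 5.6e-06). MSG5 rose with tagged Rvb2 without PIH1 (0.6 ± 0.08, 2.1e-06) and without TAH1 (0.39 ± 0.08, 0.00045). SST2, which speeds the switching off of the G protein, was at 1574 to 1686 in the Rvb2-tagged PIH1 deletion, 984 to 1045 in its wild type and 662 to 777 in its TAH1 deletion (0.70 ± 0.06, 3.1e-08, and -0.49 ± 0.06, 4.3e-06). DIG1, an inhibitor of Ste12, rose by 1.01 ± 0.07 (1.7e-09) in the Rvb2-tagged TAH1 deletion. It lies on chromosome XVI, whose median there was 0.97. DIG2, of the same list, fell in that deletion (-0.5 ± 0.1, limma adjusted p = 0.00045). It also fell without PIH1 with tagged Rvb1 (-0.3 ± 0.1, 0.023) and with tagged Rvb2 (-0.63 ± 0.1, 1.7e-05).

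Of 8 genes that process or export a-factor, the same 4 comparisons called 2 higher and 0 lower (3 and 0 at an unadjusted p under 0.05), 0 higher and 1 lower (2 and 1), 4 and 2, and 1 and 1, with medians of 0.05, 0.03, 0.17 and -0.04. The shares called were 25%, 12.5%, 75% and 25% of the list, against the same shares of all genes (38%, 10.8%, 69.6% and 44.4%). STE6, the a-factor exporter, rose without PIH1 in both backgrounds (0.38 ± 0.09, limma adjusted p = 0.0042, and 0.66 ± 0.09, 5.6e-06). STE24, a protease of a-factor maturation, rose without PIH1 with tagged Rvb1 (0.21 ± 0.06, 0.0074) and fell with tagged Rvb2 (-0.62 ± 0.06, 5.5e-08). AXL1, another such protease, rose by 1.41 ± 0.07 (5.6e-11) in the Rvb2-tagged TAH1 deletion and lies on chromosome XVI.

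Of 16 tested genes of the other pheromone-induced and fusion list (of 17), 4 were called higher and 3 lower, 3 and 0 (6 and 3 at an unadjusted p under 0.05), 7 and 4, and 7 and 3, with medians of -0.09, 0.07, 0.00 and 0.12. The shares called were 43.8%, 18.8%, 68.8% and 62.5% of the list, against 38%, 10.8%, 69.6% and 44.4% of all genes. ASG7, an a-cell gene that acts on the G protein, stood at 95 to 129 in the Rvb1-tagged wild type and fell to 30 to 42 without PIH1 (-1.61 ± 0.16, limma adjusted p = 1.4e-06). In the Rvb2-tagged background ASG7 stood at 132 to 202 in the wild type and fell to 60 to 67 without PIH1 (-1.36 ± 0.16, 9.5e-07) and to 66 to 82 without TAH1 (-1.15 ± 0.16, 1.7e-05). GIC2, an effector of Cdc42 in polarity, rose in all 4 deletions, by 0.74 ± 0.07 (3.6e-07), 0.21 ± 0.07 (0.049), 0.69 ± 0.07 (9.6e-08) and 0.42 ± 0.07 (5.7e-05). PRM3, of nuclear fusion, rose in all 4 deletions (0.78 ± 0.15, 0.74 ± 0.15, 1.21 ± 0.15 and 1.12 ± 0.15, with adjusted p = 0.00062, 0.0034, 1.1e-06 and 6.8e-06); it lies on chromosome XVI. Between the wild types limma called none of the 19, 8 and 16 genes of these lists, and 2 and 1, 1 and 0, and 4 and 2 were higher and lower at an unadjusted p under 0.05.

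Of the alpha-specific list 4 of 5 genes were tested, and limma called 0 higher and 2 lower, 0 and 2 (also at an unadjusted p under 0.05), 2 and 2, and 1 and 1, where 38%, 10.8%, 69.6% and 44.4% of all genes were called. AFB1, a barrier protein that binds a-factor, fell in all 4 deletions (-1.53 ± 0.11, -0.67 ± 0.11, -1.03 ± 0.11 and -0.45 ± 0.11, with limma adjusted p = 3.2e-08, 0.0011, 4.1e-07 and 0.0036). STE3 fell from 26 to 28 to 1 to 4 normalized counts without PIH1 with tagged Rvb1, while SAG1 rose in the Rvb2-tagged PIH1 deletion (0.66 ± 0.08, 8.6e-07). Of 9 silencing and mating type genes 5 were tested, and the calls were 0 higher and 2 lower (2 and 2 at an unadjusted p under 0.05), 0 and 0 (0 and 0), 1 and 1, and 1 and 1, against the same shares of all genes. SIR2, a deacetylase of silent chromatin, changed by -0.31 ± 0.12 (limma adjusted p = 0.049) without PIH1 with tagged Rvb1, where the groups overlapped. Without TAH1 with tagged Rvb2 it changed by -0.31 ± 0.12 (0.04). SIR4 went the other way with tagged Rvb2, without PIH1 (0.33 ± 0.08, 0.0014) and without TAH1 (0.26 ± 0.08, 0.016). SIR1 fell without PIH1 with tagged Rvb1 (-0.27 ± 0.1, 0.044) and with tagged Rvb2 (-0.23 ± 0.1, 0.049).

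**Figure D5:**
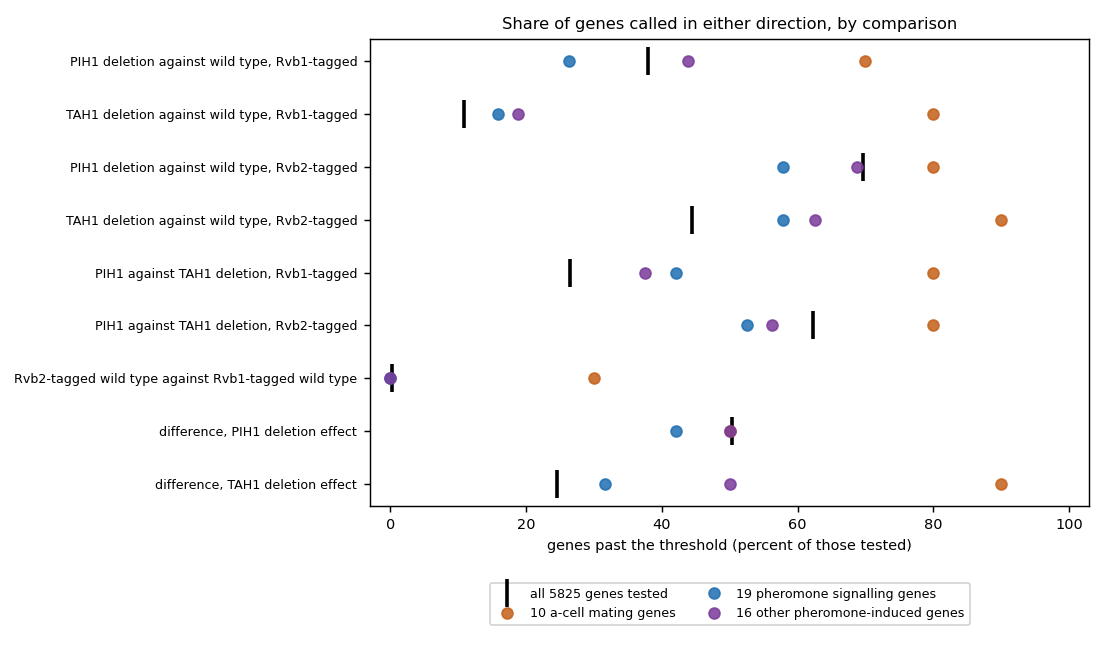
Percent of genes called by limma in either direction in each of the 9 comparisons, for all 5825 genes tested (black ticks), the 10 a-cell mating genes, 19 signalling genes and 16 other pheromone-induced genes. The 10 genes lie at 80% against 10.8% of all genes for TAH1 deletion with tagged Rvb1, and at 50% against 50.3% for the difference of the PIH1 deletion effect, where their point is covered by that of the other pheromone-induced genes.

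Genes outside the 10 with the most similar pattern are given as a description, by Pearson r of log2 values over 18 libraries that share groups. HMF1 was most like AGA1 (0.952) and most like the mean profile of the 10 (0.934), followed for that mean by ICS2 (0.909), MOG1 (0.897), MSI1 (0.895) and NFG1 (0.892). ITR1, an inositol transporter, was most like BAR1 (0.962), RPI1 like AGA2 (0.949), CHO1, which makes phosphatidylserine, like FIG1 (0.931), and OCA5 like STE2 (0.929). SST2 was most like MFA1 (0.924) and RGS2, another regulator of G protein signalling, like MFA2 (0.889). YER158C was most like FUS1 (0.898), YJL213W like PRM1 (0.892) and SDC1 like FUS3 (0.873).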

How the data were processed

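The deposited normalized counts (a signal, in whole numbers) are read counts per gene that the authors divided by a factor per library. The deposited FPKM values (kept here as a score) were rounded to whole numbers by the authors and are proportional to the counts gene by gene; for the 10 genes the FPKM per count times the annotated coding length was 189 to 197. The submitters' processing notes name sacCer3, DESeq2 1.6.3 and TopHat2 2.0.3; not given in the sources used here were the annotation, counting tool and strand setting. Columns were matched to samples by title.

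With limma 3.58.1 (R 4.3.3), a single model of the 6 groups, its variance prior following mean intensity, was fitted to log2(normalized count + 1) of the 5825 features with a mean of at least 10, and tested on simulated data. There were 9 two-sided contrasts, adjusted by Benjamini-Hochberg, with a threshold of 0.05. All 10 members were named; of each other list at most 4 called genes with the smallest adjusted p per contrast, and for likeness the nearest gene per member and 5 for their mean. The 10 genes and the lists were chosen with earlier results of these data known. The p-values measure the spread among 3 replicates per group. Alternatives were pseudocounts of 0.5 and 8, no filter or a mean of at least 50, upper-quartile and quantile scaling, the FPKM table, a fit of only the libraries compared, a replicate block, each library left out, and, added after the data were seen, a fit without chromosome XVI genes. The 10 genes overlap no other annotated gene in RefSeq R64. Motif letters were searched in the 300 bases before each start codon.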

Additional observations from a re-analysis of the deposited data

Results flagged for a closer look

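The effect of a deletion differed between the backgrounds, by limma's test of the difference (Rvb2-tagged minus Rvb1-tagged), for 5 of the 10 genes with PIH1, against 50.3% of all genes, and for 9 with TAH1, against 24.5%. For PIH1 deletion the log2 differences were -0.89 for AGA2, -1.94 for FIG1 (adjusted p = 0.032), 0.42 for PRM1 (0.036), 0.47 for MFA1 (0.0052) and -0.34 for BAR1 (0.013). The FIG1 call ended without Rvb1-tagged wild type replicate 2 (0.0538), Rvb1-tagged PIH1 deletion replicate 1 (0.0857) or 2 (0.0785), Rvb2-tagged wild type replicate 1 (0.0610) or 2 (0.0528), or Rvb2-tagged PIH1 deletion replicate 2 (0.0933). The PRM1 call ended without Rvb1-tagged wild type replicate 1 (0.107), any Rvb1-tagged PIH1 deletion replicate (0.0513 to 0.0700), Rvb2-tagged wild type replicate 1 (0.0637) or 2 (0.0647) or Rvb2-tagged PIH1 deletion replicate 2 (0.104).

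For TAH1 deletion the differences were -2.00 for AGA1, -1.55 for AGA2, -2.41 for FIG1 (adjusted p = 0.019), -1.12 for PRM1 (3.7e-05), -1.31 for FUS1, -0.78 for FUS3 (3.1e-05), -1.04 for MFA1, -0.46 for STE2 (0.00036) and -1.28 for BAR1. FIG1 missed the threshold without Rvb2-tagged TAH1 deletion replicate 2 (-1.94, adjusted p = 0.0572). The part of the raised chromosome XVI of the Rvb2-tagged TAH1 deletion in these differences was not tested. The wild types enter each difference, and 7 of the 10 genes were higher in all Rvb2-tagged than in all Rvb1-tagged wild type libraries, against 20.3% of all genes with groups that did not overlap; the part of the wild types in the differences was not tested. Groups of 3 libraries were not searched for single outlying values.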

How the results depend on the processing

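Of 2511 recomputed values of single genes under 28 alternatives, 2433 kept their side of the threshold and, where called, their direction, 61 lost and 17 gained a call, and 0 called values changed sign. For values called neither way, direction was not compared. The number of the 10 genes called in the Rvb1-tagged TAH1 deletion went from 8 to 3 with only the libraries compared. Between the wild types it went from 3 to 1 with the FPKM table and 0 with only the libraries compared. With only the libraries compared, 8 and 7 of the 10 had an unadjusted limma p under 0.05 in these 2 comparisons. That setting uses fewer libraries, and the part of this in the lost calls was not tested. Leaving out 1 library gave 7 to 8 calls for the PIH1 and 7 to 8 for the TAH1 deletion with tagged Rvb1, 8 and 9 throughout with tagged Rvb2, 7 to 8 for the deletions against each other in both backgrounds, 1 to 5 between the wild types, and 3 to 6 and 8 to 9 for the PIH1 and TAH1 differences. Between the wild types 5 were called without Rvb1-tagged replicate 3, and 1 without Rvb2-tagged replicate 1 or 2 or any Rvb2-tagged PIH1 deletion replicate. For the PIH1 difference 3 were called without Rvb1-tagged PIH1 deletion replicate 1, Rvb2-tagged wild type replicate 1 or 2, or Rvb2-tagged PIH1 deletion replicate 2. At a mean of at least 50 FIG1 was not tested. Deviations of same-numbered replicates had correlations of -0.38 to 0.23, and 0 to 4 of 6 libraries per comparison correlated best with their own number. The 4 were reached with tagged Rvb2, for TAH1 deletion against wild type (correlations of 0.07 to 0.17) and PIH1 against TAH1 deletion (0 to 0.06). With a replicate block FUS1 in the Rvb1-tagged TAH1 deletion (adjusted p = 0.0514) and PRM1 between the wild types (0.0704) missed the threshold, with 7 and 2 of the 10 called, and no other call changed. Without chromosome XVI genes no call changed. That setting only drops those genes and leaves the log2 changes of the 10 genes as they were. It therefore does not measure the part of the raised chromosome XVI in the Rvb2-tagged TAH1 deletion. FIG1, at 0 to 34 counts, is limited by depth.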
